A study of Mus musculus with 2 samples.

Results

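The genes described here are 9 components of Nodal signalling in mouse embryonic stem (ES) cells: the ligands Nodal and Gdf3, the coreceptor Tdgf1, the activin receptor Acvr2b, the secreted antagonists Lefty1, Lefty2 and Cer1, and the intracellular inhibitors Smad7 and Skil. They were chosen by name, for their place in the pathway, with earlier results of these data known. All of their probe sets in the platform annotation were taken. These were 16 probe sets for the 9 genes, out of 18193 genes that had a probe set of their own. Gene expression was measured on Affymetrix mouse genome arrays in control ES cells and in ES cells labelled Dnmt1 knockout (KO), with 1 array for each. Dnmt1 is the enzyme that copies DNA methylation patterns after replication. The sample titles mark the control and KO arrays, while the source name of both describes a control. The KO allele, the ES cell line and the culture medium are not given in the labels, and whether the KO culture was 1 clone is not given either. The series' design text describes the arrays as a reference for KO cells in further experiments on differentiation.

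Nodal is a secreted protein of the TGF-beta superfamily. It binds type I and type II activin receptors together with the membrane-anchored coreceptor Tdgf1, also known as Cripto, and the receptors phosphorylate Smad2 and Smad3, which enter the nucleus with Smad4 and act with cofactors such as Foxh1. Nodal, Lefty1 and Lefty2 are themselves targets of the pathway, and the Lefty proteins block it outside the cell, so the pathway holds both a positive and a negative loop. In the mouse embryo Nodal maintains the epiblast and later induces the primitive streak, and ES cells in culture express Nodal, Lefty1, Lefty2 and Tdgf1.

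The values are MAS5 signals, 1 linear intensity for each probe set and array. An array's median signal over its probe sets, 60.9 for control and 74.2 for KO cells, was used as a floor below which a signal was not read as a level. As deposited, the median gene above both floors was 1.34-fold brighter in KO cells, which is 0.43 in log2 units and is called the shift here. Ratios below are log2 KO over control with that shift taken off, except those described as deposited. With 1 array for each group there is no spread between replicates, no test was possible and no p-value is given. Probe sets of the same gene differed in their log2 ratio by an SD of 0.24 over 4704 genes, and 0.29 over the 1114 of these whose brightest probe set had a mean signal below 256. This SD holds no variation between cultures or arrays, and precision is limited by having 2 arrays. The 3' to 5' signal ratio, a measure of RNA integrity, was 1.29 in control and 1.25 in KO cells for Actb. It was 0.73 and 0.80 for Gapdh.

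Promoter sequences are shown because the pathway genes were compared between cells with and without the maintenance DNA methyltransferase, whose substrate is the CpG dinucleotide. RefSeq promoters (build GRCm38.p6, 250 bases before to 50 bases after the start that the promoter table uses) were matched for 4 of the 9 genes. For Nodal, Tdgf1 and Cer1 this is the gene's outermost start, while the Acvr2b window (chr9:119401928-119402227, plus strand) lies wholly inside the gene, whose outermost start is at 119401583. Those of Nodal (chr10:61417722-61418021, plus strand), Tdgf1 (chr9:110946109-110946408, minus strand) and Cer1 (chr4:82885102-82885401, minus strand) are printed below, since these genes had a ratio above the shift, a ratio at the shift and no signal above the floor, respectively. Each is written 5′ to 3′ with CpG dinucleotides in capitals.
Nodal: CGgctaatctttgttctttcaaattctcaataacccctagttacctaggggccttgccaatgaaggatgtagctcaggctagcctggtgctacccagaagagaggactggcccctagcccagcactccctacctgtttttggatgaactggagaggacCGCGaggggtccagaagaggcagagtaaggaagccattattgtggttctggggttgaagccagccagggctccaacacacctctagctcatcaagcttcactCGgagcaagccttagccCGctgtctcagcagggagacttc
Tdgf1: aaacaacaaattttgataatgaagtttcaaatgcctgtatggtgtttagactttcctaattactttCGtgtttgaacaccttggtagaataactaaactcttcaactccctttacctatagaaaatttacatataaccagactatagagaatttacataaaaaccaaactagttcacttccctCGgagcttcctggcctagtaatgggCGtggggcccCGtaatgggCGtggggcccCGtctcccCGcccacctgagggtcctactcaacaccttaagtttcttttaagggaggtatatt
Cer1: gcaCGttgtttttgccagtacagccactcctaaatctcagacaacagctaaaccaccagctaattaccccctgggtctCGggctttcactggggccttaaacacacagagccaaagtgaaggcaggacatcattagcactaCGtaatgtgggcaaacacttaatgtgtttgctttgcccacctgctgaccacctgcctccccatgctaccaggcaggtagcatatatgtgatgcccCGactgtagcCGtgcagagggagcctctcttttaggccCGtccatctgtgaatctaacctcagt

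The 3 printed promoters were alike in their CpG number. The Nodal window held 5 CpGs, Tdgf1 held 7 and Cer1 held 6, beside a median of 7 over 32851 promoters of the same length. Acvr2b, the fourth gene with a promoter in the table, held 27 CpGs, a number reached by 15.5% of all promoters. Among these 4 windows, neither AATNCACA, the letters recognised by Foxh1, nor the palindrome GTCTAGAC, bound by Smad proteins, was present on either strand. AATNCACA was present in 3.6% of all promoters and GTCTAGAC in 0.213%. The shorter Smad letters CAGAC, which neither of the longer motifs contains, occurred once each in the Tdgf1, Cer1 and Acvr2b windows, in Tdgf1 and Cer1 beginning 113 and 213 bases before the start, and were absent from the Nodal window. CAGAC was present in 49.6% of all promoters. Methylation was not measured here, and a match or its lack says only which letters the window holds.

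Dnmt1 itself was low in the KO sample. Its brightest probe set had a signal of 1949.1 in control and 262.1 in KO cells, a ratio of -3.32, and the others were below the floor in KO cells alone. The labels do not say where in the gene the KO allele differs, nor which probe sets read that part.

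Nodal and both Lefty genes lay above the shift, that is, higher in KO cells than the median gene, while the coreceptor Tdgf1 lay at the shift and the ligand Gdf3 below it. Cer1 was under both floors. Of the 8 genes above a floor, 1 was at least 2-fold higher relative to the shift, Lefty2, and 0 were 2-fold lower. Over the whole array the 2-fold threshold was passed upwards by 1.09% and downwards by 0.532% of 12226 measured genes. As deposited, 2 of the 8 genes, Nodal and Lefty2, were at least 2-fold higher and 0 lower, against 4.92% and 0.0982% of all measured genes. The median ratio of the 8 genes was 0.07, beside 0.00 for all measured genes, or 0.49 beside 0.42 as deposited. Of the 14 member probe sets above both floors, 7 lay above the shift and 7 below it. The 7 above include that of Tdgf1, which was at 0.00 after rounding. As deposited, 13 of the 14 were higher on the KO array.

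**Figure D1:**
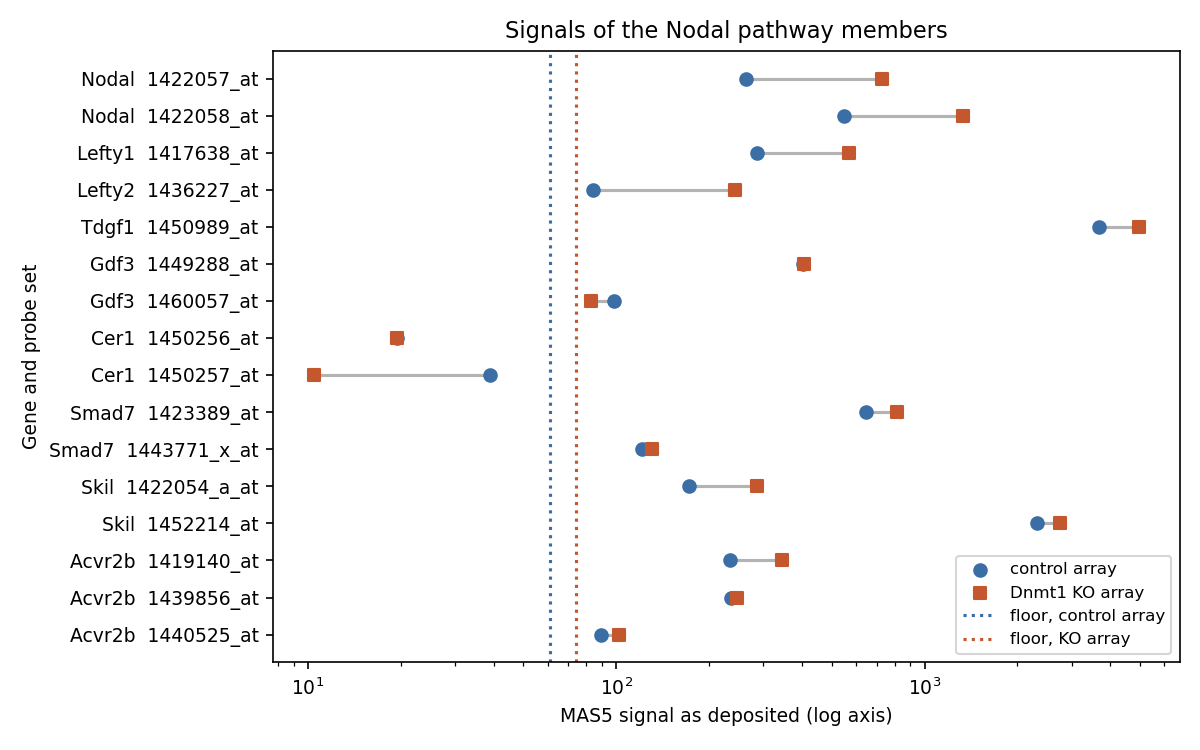
MAS5 signals as deposited (log axis) of the 16 probe sets of the 9 genes, with a circle for the control array, a square for the KO array and dotted lines at the floors of 60.9 and 74.2. The widest gaps towards the KO array above the floors are those of Lefty2 and of both Nodal probe sets, and both Cer1 probe sets lie left of the floors.

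The Nodal gene itself (chromosome 10, 61417972 to 61425338 in GRCm38.p6) had 2 probe sets, and both were above the shift. The brighter gave a signal of 549.1 in control and 1331.5 in KO cells. The dimmer gave 263.2 and 729.3. The KO signal was thus the higher on each probe set. The brighter probe set was 1.81-fold higher relative to the shift, a log2 ratio of 0.85, and 2.42-fold higher as deposited. The other was 2.06-fold higher relative to the shift, a log2 ratio of 1.05, so this probe set alone passed the 2-fold threshold. Their mean was 0.95 ± 0.14 (SD between 2 probe sets). The 2 probe sets are readings of the same 2 RNA samples and are not replicates of the cultures. By its brighter probe set Nodal ranked 214 of 12226 measured genes from the highest ratio. Ratios scatter more widely for dim genes, so each member is also set beside genes of like signal, defined as a mean log2 signal within 0.5 of its own. Of 1800 such genes, Nodal included, 16 (0.889%) had a ratio at or above that of Nodal, and the middle 95% of them ran from -0.55 to 0.60. In RNA of a whole culture, more cells of a kind and more RNA in each cell cannot be told apart.

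Gdf3 is a ligand related to Nodal that is made by ES cells and also opposes BMP signalling. Its brighter probe set gave 402.7 in control and 406.1 in KO cells. The other gave 98.6 and 83.1, close to the floor. The brighter reading was nearly equal on both arrays as deposited and therefore lay 1.33-fold below the shift, at -0.41, and the other lay at -0.67. The mean of both was -0.54 ± 0.18 (SD between 2 probe sets). Gdf3 was the lowest of the 8 measured genes, and its direction depended on the scaling, since the brighter probe set was 0.01 as deposited. Of 2536 genes of like signal, 2372 (93.5%) had a ratio at or above it, and its value lay inside their middle 95%, from -0.61 to 0.72.

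The receptor components were near the shift. Tdgf1 had 1 probe set, with a signal of 3678.7 in control and 4943.7 in KO cells, a log2 ratio of 0.43 as deposited and 0.00 relative to the shift. It ranked 5993 of 12226. Acvr2b, a type II receptor that binds Nodal and activins, had 3 probe sets above both floors. Their signals were 233.5 and 344.4, 235.7 and 246.2, and 89.2 and 102.0 on the control and KO arrays. The first of these lay above the shift at 0.14 and the others below it at -0.36 and -0.23. The mean over the 3 probe sets was -0.15 ± 0.26 (SD), so the probe sets of Acvr2b disagreed in sign and the spread between them was larger than their mean.

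Lefty1 and Lefty2 encode closely related secreted proteins that bind Nodal and its coreceptor and block receptor activation. Their genes lie next to each other on chromosome 1 (GRCm38.p6), Lefty2 from 180893108 to 180899107 and Lefty1 from 180935022 to 180938401, with 35914 bases between them. Each had 1 probe set. Whether RNA of the one gene contributes to the signal of the other was not tested.

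Lefty2 had the highest ratio of the 8 measured genes. Its signal was 84.1 in control and 242.1 in KO cells, 2.14-fold higher relative to the shift, a log2 ratio of 1.10, and 2.88-fold higher as deposited. The control signal was 1.38 times the floor and the KO signal 3.26 times the floor, so the ratio rests on a dim control reading. Lefty2 ranked 103 of 12226 measured genes, and 23 of 2602 genes of like signal (0.884%) had a ratio at or above it, the middle 95% running from -0.81 to 0.83. Lefty1 had a signal of 286.8 in control and 568.5 in KO cells. This was 1.48-fold higher relative to the shift, a log2 ratio of 0.56, and 1.98-fold higher as deposited, just under the threshold. It ranked 642 of 12226. Of 2539 genes of like signal, 132 (5.2%) had a ratio at or above that of Lefty1, and it lay inside their middle 95%, from -0.61 to 0.72. Nodal and Lefty2 were thus outside the middle 95% of genes of like signal, and Lefty1 was inside it.

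Cer1 encodes a secreted antagonist of Nodal and BMP proteins that is made by the anterior visceral endoderm of the embryo. Its probe sets gave 19.4 on both arrays and 39.0 on the control against 10.5 on the KO array. All 4 signals were below the floor, so Cer1 has no ratio here.

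**Figure D2:**
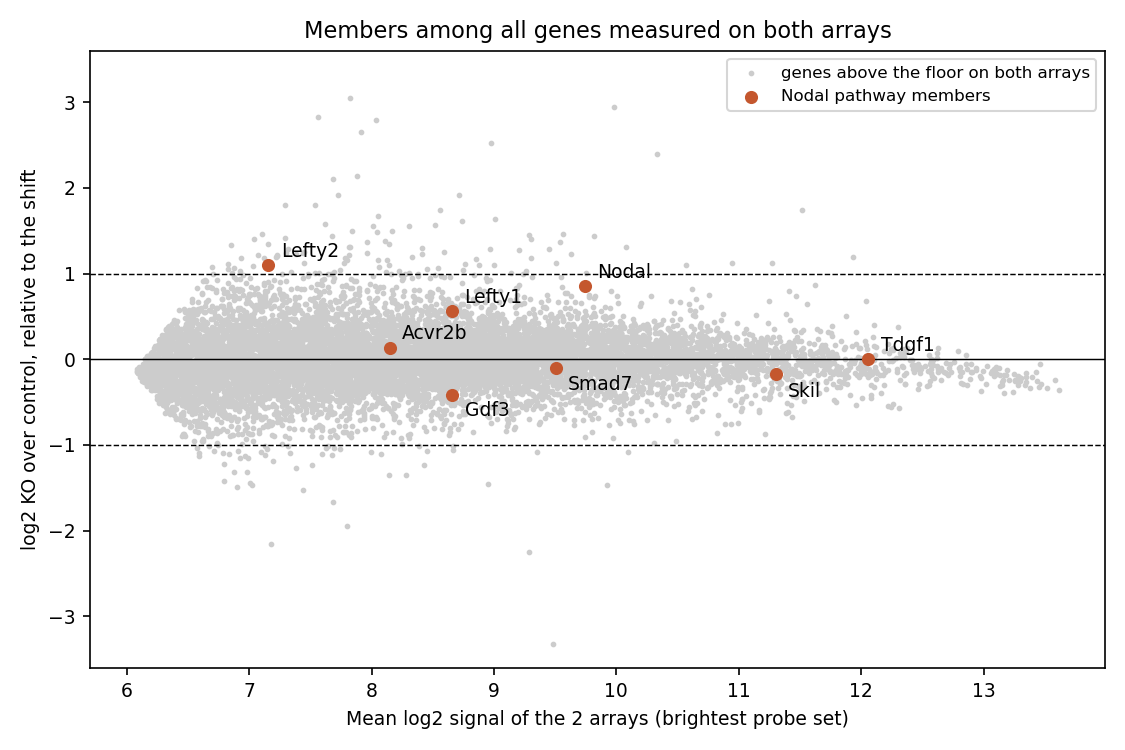
Log2 ratio of KO over control relative to the shift against mean log2 signal, for each gene above the floor on both arrays (grey) and for the 8 measured members (orange, named), with dashed lines at 2-fold. Lefty2 at 1.10 and Nodal at 0.85 lie at the upper edge of genes of like signal, Lefty1 at 0.56 lies within them, and the remaining members run from Gdf3 at -0.41 to Acvr2b at 0.14.

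The intracellular inhibitors were close to the shift. Smad7, an inhibitory Smad that competes for the activated receptors and is itself induced by TGF-beta family signals, gave 647.7 in control and 813.5 in KO cells by its brighter probe set. The other, of a type whose probes may bind unrelated transcripts, gave 121.2 and 130.9. Smad7 was thus higher on the KO array as deposited by both readings, at 0.33 and 0.11, and below the shift by both, at -0.10 and -0.31, with a mean of -0.21 ± 0.15 (SD between 2 probe sets). Skil, also called SnoN, represses Smad target genes and is another feedback target of the pathway. Its brighter probe set gave 2307.9 and 2757.4, and the other gave 172.5 and 287.2. The brighter lay below the shift at -0.17 and the other above it at 0.31, for a mean of 0.07 ± 0.34 (SD between 2 probe sets). Neither Smad7 nor Skil shared the size of the Nodal and Lefty2 ratios on any probe set, and no test of that difference exists with 1 array for each group. The signals of different probe sets depend on their probes, so the members are not ordered by level. A likeness of pattern between genes was not computed, since over 2 arrays every pair of genes correlates at 1 or -1.

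The rest of the pathway was read from lists of other ligands, receptors, transducers and targets. Among other ligands, processing enzymes and extracellular inhibitors, 10 of 11 genes on the array were above a floor, and 0 were 2-fold higher and 0 lower, with a median of -0.11. Inhbb, a subunit of activin B, went from 100.8 to 88.1 (-0.62). Ltbp1 and Ltbp3, which tether latent TGF-beta, had ratios of -0.57 and -0.28, and the activin-binding protein Fst had 0.30. All of these were dim, with control signals from 67.3 to 132.2.

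Of 8 other receptors and coreceptors, 7 were above a floor and their median was 0.05. None of the 7 was 2-fold different relative to the shift, and 1 was as deposited. That gene was Tgfbr3, betaglycan, a coreceptor for TGF-beta and inhibin, which went from 79.6 to 197.7 (0.89, with a mean of 0.67 ± 0.31, SD between 2 probe sets). Cfc1, a relative of Tdgf1, had a ratio of -0.25, the TGF-beta receptor Tgfbr2 -0.16 and the type I receptor Acvr1b 0.09. The activin receptor Acvr2a, named after its values were seen, had 0.05 by its brightest probe set. Its mean was 0.46 ± 0.58 (SD between 2 probe sets).

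All 19 Smads and cofactors were above a floor, with a median of 0.04. Of these, 1 was at least 2-fold higher and 0 were lower. It was Smad6, an inhibitory Smad that acts mainly on BMP receptors, with a signal of 102.1 in control and 298.0 in KO cells (2.17-fold, log2 ratio 1.12, 1 probe set). The ubiquitin ligase Smurf2 had 0.42 (0.37 ± 0.17, SD between 3 probe sets), the Smad corepressor Tgif2 0.40 and the Foxh1-binding repressor Drap1 0.31. The signal-carrying Smads and Foxh1, named after their values were seen, lay near the shift: Smad2 had 0.02, Smad3 -0.19, Smad4 -0.22 and Foxh1 -0.05. The probe sets of Smad2 averaged -0.35 ± 0.52 (SD between 2).

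Other target genes of Nodal and activin mostly lay below the shift, 6 of 8. Of 12 on the array, 8 were above a floor. Of these, 0 were 2-fold different in either direction, and the median was -0.25, or 0.18 as deposited. Fgf15 had -0.54, the mesendoderm factor Mixl1 -0.42 (105.8 and 106.4), the epiblast factor Otx2 -0.28 and the endoderm factor Sox17 at least 0.32 (41.0 on the control array, below the floor, and 102.0 on the KO array). The streak and organiser genes Gsc, Lhx1 and Fgf8, named after their values were seen, were under both floors, as was the epiblast gene Fgf5. The genes of the related BMP pathway had a median of -0.06 over 14 of 18, with 0 at 2-fold in either direction. Id3, a BMP target, went from 1100.1 to 2199.6 (0.57), whereas the companion targets Id1 and Id2, named after their values were seen, had -0.15 and -0.03. The BMP antagonist Chrd had 0.50, Smad1 -0.44 and the decoy receptor Bambi -0.37. Smad1 lies on chromosome 8, whose 602 genes above both floors had a median of -0.37, and none of the 9 members lies there. Known TGF-beta targets lay both above and below the shift. Among 10 of them, 1 was 2-fold higher and 1 was 2-fold lower, with a median of -0.47. Cdkn2b, the cell cycle inhibitor p15, went from 125.6 to 341.4 (1.02), and Cdkn1a had 0.67. The actin-binding gene Tagln went from 707.9 to 345.9 (-1.46), and the matricellular gene Ccn1 had -0.75, with 4 probe sets at -0.71 ± 0.03 (SD). The lists name genes of known membership, and each was given no test.

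**Figure D3:**
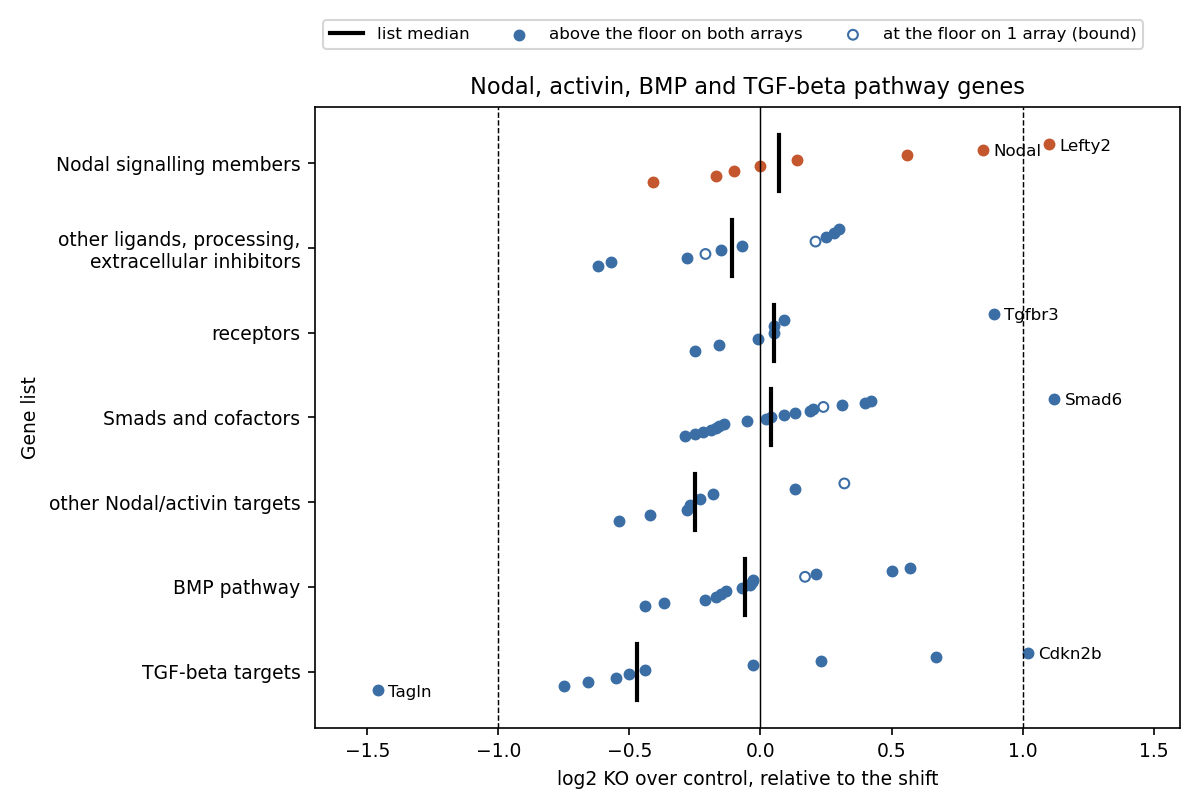
Log2 ratio of KO over control relative to the shift for the genes of each pathway list, with filled points for genes above the floor on both arrays, open points for bounds, a black bar for the list median and dashed lines at 2-fold. Lefty2 (1.10), Smad6 (1.12), Cdkn2b (1.02) and Tagln (-1.46) lie beyond 2-fold, and the list medians run from -0.47 to 0.07.

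Markers of the cells that could carry these transcripts were read on the same arrays. The ES cell factors Pou5f1 (2689.7 and 3297.0) and Sox2 (5436.6 and 6962.0) were well above the floor on both arrays, with ratios of -0.13 and -0.07. Nanog, an ES cell factor that is expressed unevenly between cells, went from 592.5 to 1965.5 (1.30), while Utf1 and Fgf4 had -0.62 and -0.51 and Dppa5a -0.22. Lefty1 and Cer1 are also made by visceral endoderm. Of 14 visceral endoderm markers, 8 were above a floor. Of these, 1 was at least 2-fold lower and 0 were higher, beside 0.532% and 1.09% of all measured genes. Their summed signal above the floor was 868.6 in control and 1020.0 in KO cells as deposited. The sums given for marker lists hold the 1.34-fold shift, unlike the ratios. Of the 8, 4 lay above the shift and 4 below it. Gata4 had -0.54 or below, Gata6 -0.37 or below and Hnf4a -1.35 or below, whereas Hhex had 0.55 and Sox17 at least 0.32. The others, named after their values were seen, were Amn at 0.19, Dab2 at 0.10 and Foxa2 at -0.18. Afp, Ttr and Apoa1 were under both floors. The Hnf4a bound rests on its brightest probe set (140.5 and 60.1), which was below the KO floor. A dimmer Hnf4a probe set was above both floors, and its ratio is not given here. Of 7 primitive streak markers, 3 were above a floor. These were Mixl1 at -0.42, Eomes (161.0 and 179.1) at -0.27 and Mesp1 (64.7 and 59.5) at -0.23 or below. Of 10 feeder fibroblast markers, 5 were above a floor, none was 2-fold different, and the summed signal was 1351.2 and 1829.3 as deposited. Fbln1 had 0.99, Col1a1 -0.66 and Col3a1 was under both floors. Of 8 trophoblast markers, 6 were above a floor and 2 were at least 2-fold higher, beside 1.09% of all measured genes. Their summed signal was 1533.4 and 3277.3 as deposited. Tfap2c went from 446.3 to 1405.5 (1.23), Krt7 had at least 1.17, Cdx2 had -0.36 or below and Eomes had -0.27. Krt8 had 0.42 by its brightest probe set, but a mean of 0.04 ± 0.33 (SD between 3 probe sets). Of the others, named after their values were seen, Hand1 had 0.28, and Elf5 and Gata3 were under both floors. The part of these markers' cells in the Nodal and Lefty ratios was not tested.

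**Figure D4:**
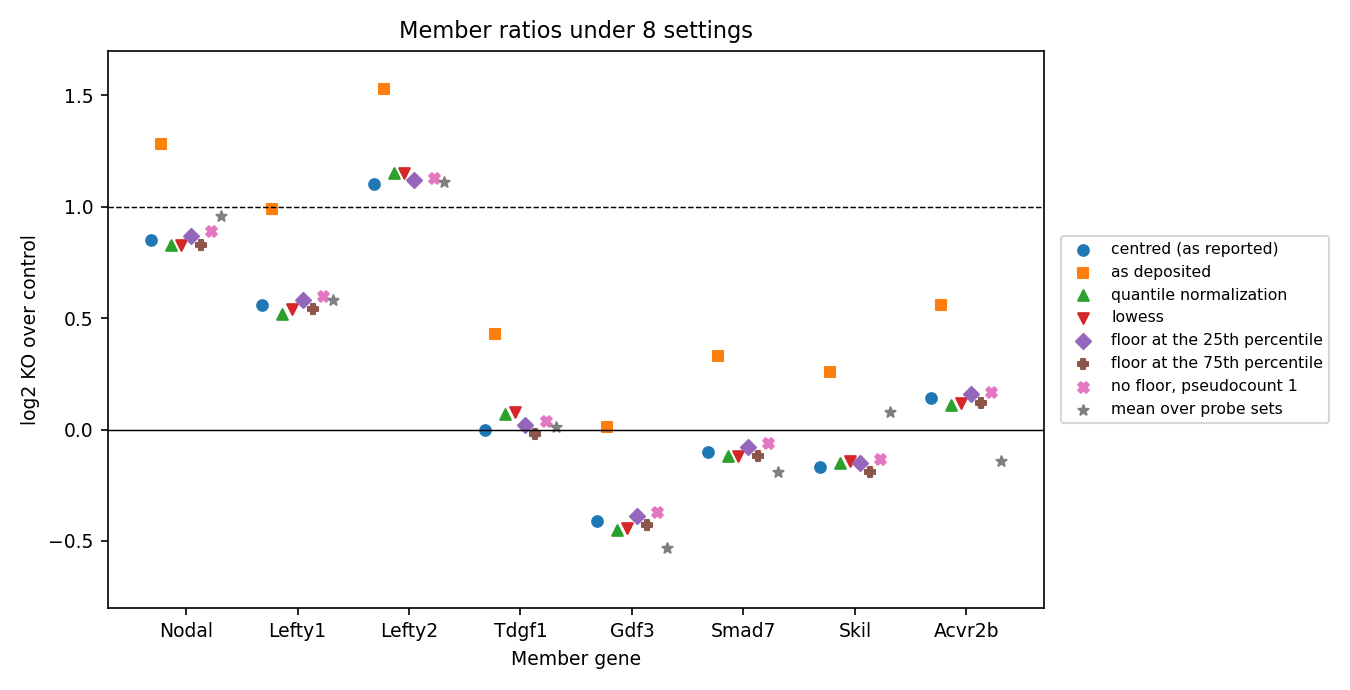
Log2 ratio of KO over control for each measured member under 8 settings of scaling, floor and probe set summary, with a dashed line at 2-fold. Nodal runs from 0.83 to 1.28, Lefty1 from 0.52 to 0.99 and Lefty2 from 1.10 to 1.53, in each case highest as deposited, and Lefty2 has no value with the floor at the 75th percentile.

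The order of the leading members held in the processing settings that could have changed it. Lefty2 was above Nodal and Nodal above Lefty1 in every setting that gave all 3 a value. As deposited and with the lower floor that was tried, the same ratios were moved by a constant, so their order was fixed. With no floor this was nearly so. Quantile normalization and lowess could have changed the order, and it held in each of them. The mean over probe sets could not, since both Nodal probe sets lay between Lefty1 and Lefty2, which had 1 probe set each. In 7 of the 8 settings Lefty2 was measured, and its log2 ratio was at or above the 2-fold line in each of the 7. Nodal reached that line as deposited alone. Gdf3 ran from -0.53 to 0.01, and each of Gdf3, Smad7, Skil, Acvr2b and Tdgf1 took both signs over the settings.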

How the data were processed

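Total RNA from 1 control and 1 Dnmt1 KO culture was labelled with biotin and hybridised to 1 array each. The deposited signal intensities were made by the authors with MAS5, per the submitters' processing notes. Whether arrays were scaled, and any detection calls, is not given in the sources. The 45101 probe sets included 64 Affymetrix controls, which were left out. The platform annotation gave gene names, probe sets with several symbols were not used, and symbols were updated to RefSeq (GRCm38.p6).

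Signals below an array's median were raised to it before taking log2. The brightest probe set stood for its gene. Where 1 of the signals was at the floor the ratio is a bound, and list medians use that bound. Ratios are relative to the median of 10995 genes above both floors. No test was possible. Named were all members, Dnmt1, list genes at least 2-fold different or among the 4 largest ratios of a list, and defining markers. The members and lists were chosen with earlier results of these data known. Quantile normalization, lowess (statsmodels 0.14.6), other floors, the mean over probe sets and other thresholds were tried. The ratio procedure was tested on simulated data, with planted changes larger than those of the members and only in genes well above the control floor. It does not cover a dim gene such as Lefty2. Python 3.11.15 was used.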

Additional observations from a re-analysis of the deposited data

How the results depend on the processing

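No paired analysis was possible because each group had 1 array. The as-deposited values hold the shift of 0.43. As deposited, the median of the members was 0.49, that of other ligands 0.31, receptors 0.48, Smads and cofactors 0.46, other Nodal and activin targets 0.18, the BMP pathway 0.37 and TGF-beta targets -0.04. Under quantile normalization and lowess these medians stayed close to the reported ones. The largest move was that of other ligands, from -0.11 to -0.05 under lowess. The number of members at least 2-fold higher was 2 as deposited, 2 at a threshold of 1.5-fold (4.74% of all genes), 0 at 3-fold (0.262% of all genes) and 0 with the floor at the 75th percentile (0.672% of 7145 genes), where Lefty2 was below both floors. Over all genes, the higher genes made up 67.2% of the 2-fold calls around the shift, but 98.0% as deposited. The number of members 2-fold lower was 1 with the floor at the 25th percentile and 1 with no floor, and that gene was Cer1, at -1.12 or below and at -2.18. With the floor at the 25th percentile, 2.28% of 15813 genes were 2-fold higher and 2.45% lower. With no floor, 4.65% of 18193 genes were 2-fold higher and 5.77% lower. With the mean over probe sets, Skil changed from -0.17 to 0.08 and Acvr2b from 0.14 to -0.14. Signals near the floor limit Lefty2 and the dimmer probe sets of Gdf3 and Acvr2b most.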

Other observations

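The chromosomal neighbours of Nodal and the Lefty genes were read on the same arrays, as the 5 nearest genes above both floors on each side, in RefSeq gene order, with other members left out of the summary. The 9 neighbours of Lefty1 had a median ratio of 0.01, from -0.42 to 0.82, and those of Lefty2 a median of -0.11 over the same range. Ephx1, an epoxide hydrolase of xenobiotic metabolism, was the highest of them, with a signal of 111.6 in control and 265.0 in KO cells (0.82). Sde2, the nearest measured gene on the other side, had 0.33, and Tmem63a, between Lefty1 and Ephx1 in this order, had -0.11. The target gene Mixl1, at -0.42, is also one of these neighbours. Lefty2 was above all of its listed neighbours, and Lefty1 was above all but Ephx1 and Lefty2.

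The 10 neighbours of Nodal had a median of 0.16 and ran from -0.49 to 0.62. The flanking genes Pald1 and Eif4ebp2, a repressor of translation initiation, had 0.51 and 0.21, and Psap, the precursor of the saposins of lysosomal lipid breakdown, had 0.62 (812.9 and 1681.8). Nodal was above each of the 10. Genes were named here by position, and no test was made.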
